A study of Mus musculus with 7 samples.

Results

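Chaperonins are barrel-shaped protein-folding machines, and 10 genes of both kinds were examined in lung: Tcp1, Cct2, Cct3, Cct4, Cct5, Cct6a, Cct7 and Cct8, which encode the 8 subunits of the cytosolic complex TRiC, and Hspd1 and Hspe1, which encode the mitochondrial pair Hsp60 and Hsp10. The members were all probe sets of the deposited table that the array's annotation assigns to 1 of these genes alone. The 10 genes are among 18193 with such a probe set, and the members numbered 28 among 45037 probe sets that are not controls, 25 for TRiC and 3 for the mitochondrial pair. A probe set is the group of short array probes that together report 1 transcript. Cct3 and Cct4 had 7 probe sets each, Cct2 had 3, Cct6a, Cct7, Cct8 and Hspe1 had 2, and Tcp1, Cct5 and Hspd1 had 1.

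Lungs of mice lacking Gata5, a zinc-finger transcription factor, were compared with lungs of wild-type mice. The samples were left lungs taken at 8 weeks of age, 3 from Gata5 KO mice and 4 from wild-type (WT) mice. Each was measured on its own Affymetrix Mouse Genome 430 2.0 array, starting from 2.5 µg of total RNA. The labels give no treatment. The strain, the sex, the design of the deleted allele and the cells in which it acts are not stated in the labels.

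TRiC takes up newly made proteins in its central chamber and folds them in cycles of ATP hydrolysis. Its best known clients are actin and tubulin, and prefoldin hands many of them over. Hsp60 does the same work inside mitochondria, closed by a lid of Hsp10, on proteins that have been imported through the mitochondrial membranes. The mitochondrial pair is induced by heat shock and by misfolded protein in the mitochondrial matrix, and TRiC is made in most cells, most of all in those that synthesise much protein.

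The Hspd1 and Hspe1 genes lie head to head and share a control region, which is shown because it holds the best known DNA signature of the heat-shock response. Sequences are from RefSeq, mouse build GRCm38.p6, and windows were found for 9 of the 10 genes, 12 windows in all, since some genes have more than 1 annotated start. A heat-shock element is built of GAA units and their reverse TTC, spaced by 2 bases, and is bound by heat-shock factors. The stretch from the inner annotated Hspd1 start to the Hspe1 start is 215 bases long and lies at chr1:55087933-55088147. It is written 5′ to 3′ on the plus strand, along which Hspe1 is transcribed, with the units and their spacers in capitals.

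Hspd1 and Hspe1 shared region: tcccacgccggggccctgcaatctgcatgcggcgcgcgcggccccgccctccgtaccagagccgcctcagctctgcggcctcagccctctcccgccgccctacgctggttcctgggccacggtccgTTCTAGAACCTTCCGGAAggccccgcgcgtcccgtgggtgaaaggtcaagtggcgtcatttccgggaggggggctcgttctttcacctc

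The capitals form 4 alternating units, from 89 to 72 bases before the Hspe1 start and from 144 to 127 bases before the inner Hspd1 start. The search covered the 250 bases before each start on both strands. Runs of 4 units (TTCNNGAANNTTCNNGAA or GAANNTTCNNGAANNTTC) were present in 0.0213% of all 32851 windows, and runs of 3 units (GAANNTTCNNGAA or TTCNNGAANNTTC), which the longer runs contain, in 0.466%. Another Hspd1 start lies 95 bases beyond the Hspe1 start, and its window held no match.

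Among the TRiC genes, single pairs of units (GAANNTTC or TTCNNGAA, present in 12.8% of all windows) were found at 1 start each of Cct2 and Cct5. They are shown, in capitals, within 30 bases of the minus strand at chr10:117063399-117063428 and chr15:31601862-31601891, as the nearest counterparts in TRiC to the mitochondrial element. Cct7, the gene of the TRiC probe set that differed most, has no such pair in its window. It holds CCAAT 3 times on the strand opposite to the one printed, so that the printed letters read ATTGG. At least 1 CCAAT was present in 33.8% of all windows and in 4 of the 12 member windows, those of Cct3, Cct6a, Cct7 and Tcp1. It is thus not particular to Cct7. The 250 bases of Cct7 at chr6:85451255-85451504 on the plus strand are given with ATTGG in capitals. A match describes the letters only.

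Cct2: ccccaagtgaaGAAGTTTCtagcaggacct

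Cct5: acagcggccgaTTCCAGAAgctactctgcg

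Cct7: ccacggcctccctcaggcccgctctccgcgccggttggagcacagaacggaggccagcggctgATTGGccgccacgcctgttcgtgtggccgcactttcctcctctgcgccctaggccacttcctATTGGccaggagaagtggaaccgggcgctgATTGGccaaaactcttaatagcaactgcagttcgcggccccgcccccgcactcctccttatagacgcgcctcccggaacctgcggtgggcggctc

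All levels are log2 values as deposited, so a difference of 1 is a doubling, and errors are SD over mice. Differences are KO minus WT, tested with limma over all 45037 probe sets, and adjusted p under 0.05 after the Benjamini-Hochberg method was the threshold. The arrays had medians between 6.10 and 6.15. On KO arrays the control probe sets at the 3′ end of beta-actin exceeded those at the 5′ end by 4.74 to 5.39, against 3.88 to 4.31 on WT arrays (exact two-sided permutation p = 0.0286, the smallest that 35 splits of 7 arrays can give), so the 2 groups also differed in a measure of RNA quality. WT replicate 4 differed from all others in Xist, the RNA of the inactive X chromosome of females, at 12.72 against 6.31 to 6.48. Gata5 itself was dim, at 4.71 to 5.15 in KO and 5.32 to 5.85 in WT lungs at probe set 1450126_at (log2 difference -0.60, adjusted p = 0.0336). Its other probe set, 1450125_at, differed by -0.26 and did not pass (adjusted p = 0.0993), and the deleted exons are not stated in the labels, so neither checks the deletion.

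Chaperonin probe sets that passed the test were all lower in KO lungs. Of the 28 probe sets, 10 fell, 0 rose and 18 did not pass, while over all probe sets 6.37% fell and 3.53% rose. At an unadjusted p under 0.05 the counts were 16 lower and 0 higher, against 14.4% and 14.9% of all probe sets. The 10 that fell belong to Cct2, Cct3, Cct5, Cct6a, Cct7, Cct8, Hspd1 and Hspe1, with log2 differences between -0.90 and -0.32. For 16 probe sets the highest KO array was below the lowest WT array, which was so for 11.7% of all probe sets, and no probe set had the opposite arrangement. The median difference was -0.26 over the 28, against 0.04 over all probe sets. Of the 24 at or above the 40th percentile of mean level, 9 fell, against 10.1% of all probe sets there. In whole lung, fewer cells that make a transcript and less of it per cell cannot be told apart.

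Most of these calls were lost when a measure of RNA quality entered the fit, as were most calls on the whole array. When the beta-actin 3′ to 5′ contrast entered the fit as a covariate, 0 of the 28 passed (limma, with 14 lower and 0 higher at unadjusted p under 0.05, against 8.24% and 9.5% of all probe sets). The median difference of the 10 was then -0.68, against -0.58 without it. With its 3′ to middle contrast in the fit 0 passed as well (6 lower and 0 higher at unadjusted p under 0.05, against 5.25% and 6.07% of all probe sets), and the median of the 10 moved to -0.31. With that of Gapdh 2 passed, Cct8 and Hspd1, with 14 lower and 0 higher at unadjusted p under 0.05, against 9.55% and 7.58% of all probe sets. The median of the 10 was then -0.78. The 10 were selected for being lower in the fit without a covariate. Over all 28 the median was -0.26 without a covariate, and -0.25, -0.10 and -0.28 with the covariates in this order. Over all 45037 probe sets these 3 fits left 0, 1 and 13 calls, with fewer degrees of freedom than the fit without a covariate, and the part of RNA quality in the loss was not tested.

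**Figure D1:**
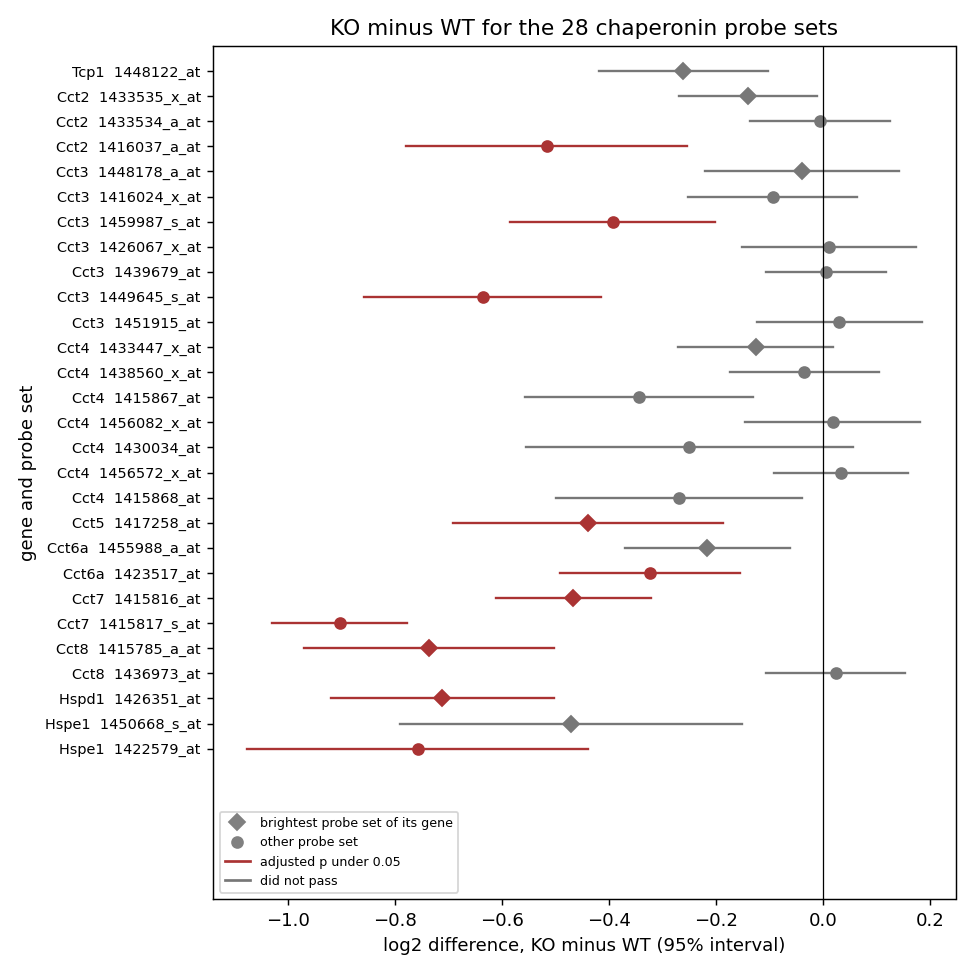
The log2 difference, KO minus WT, of each of the 28 probe sets on the horizontal axis, with its 95% interval from limma; diamonds mark the brightest probe set of a gene and red marks an adjusted p under 0.05. The 10 red probe sets lie between -0.90 and -0.32, and several probe sets of Cct2, Cct3 and Cct4 lie near 0.

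Cct7, the eta subunit, had the largest difference of any TRiC probe set, though at the brightest probe set of each gene Cct8 differed more (-0.74 against -0.47). At probe set 1415817_s_at the KO arrays read 7.77, 7.81 and 7.68 and the WT arrays 8.68, 8.61, 8.66 and 8.68. The groups were 0.80 apart at their nearest, several times the range within either. The means were 7.75 ± 0.07 (SD, n = 3) and 8.66 ± 0.03 (SD, n = 4), a 1.87-fold lower level in KO (adjusted p = 0.00179).

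The other Cct7 probe set, 1415816_at, also fell but by less. It read 10.08, 10.13 and 10.07 in KO and 10.49, 10.48, 10.60 and 10.67 in WT lungs, again without overlap (1.38-fold lower, adjusted p = 0.00709). The first minus the second averaged -2.34 ± 0.04 (SD) over the 3 KO arrays, and -1.90 ± 0.08 (SD) over the 4 from WT mice. These values did not overlap on the 7 arrays, but the test did not pass after adjustment (exact permutation p = 0.0286, adjusted p = 0.0571 over the 18 within-gene differences).

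Cct8, the theta subunit, fell at the brighter of its probe sets. Probe set 1415785_a_at read 8.40, 8.76 and 8.50 in KO and 9.24, 9.13, 9.41 and 9.38 in WT lungs, with KO replicate 2 the highest of its group and still below every WT array. The level was 1.67-fold lower, with a log2 difference of -0.74 (95% interval -0.97 to -0.50, adjusted p = 0.00722). The second Cct8 probe set, 1436973_at, read 3.14 to 3.29 on all 7 arrays, near the lowest values of the table, and reports no difference (0.02, 95% interval -0.11 to 0.15).

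Cct5, the epsilon subunit, has a single probe set, 1417258_at. Its values were 10.02, 10.22 and 9.86 in KO and 10.42, 10.29, 10.50 and 10.68 in WT lungs. The highest KO array and the lowest WT array were 0.07 apart, so the groups separated narrowly, with a 1.36-fold lower level in KO (adjusted p = 0.0426). Removing KO replicate 1 or 3, or WT replicate 1, 3 or 4, ended the call, with adjusted p up to 0.127.

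Cct6a, a zeta subunit made in most tissues, showed small differences at both its probe sets. 1423517_at read 9.81, 9.85 and 9.76 in KO and 10.04, 10.02, 10.19 and 10.27 in WT lungs (1.25-fold lower, adjusted p = 0.0316). The brighter 1455988_a_at read 11.75, 11.67 and 11.76 against 11.90, 11.88, 12.09 and 11.90, and did not pass (-0.22, adjusted p = 0.0794). Neither pair of groups overlapped. The call at 1423517_at was held only when WT replicate 2 was left out, and was lost without any other single array (adjusted p up to 0.0930).

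Tcp1, the alpha subunit and the one that gave the family its name, lay just outside the threshold. Its probe set read 10.25, 10.15 and 10.07 in KO and 10.36, 10.36, 10.41 and 10.54 in WT lungs. The groups did not overlap, but the difference of -0.26 (95% interval -0.42 to -0.10) gave an adjusted p of 0.0504.

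Cct2, the beta subunit, gave different answers at different probe sets. 1416037_a_at read 9.52, 9.70 and 9.32 in KO and 9.95, 9.90, 9.99 and 10.28 in WT lungs, 1.43-fold lower (adjusted p = 0.0291). 1433535_x_at differed by -0.14 (adjusted p = 0.145) and 1433534_a_at by -0.005, with a 95% interval of -0.14 to 0.13. The intervals of the last 2 do not reach the estimate of the first. The call at 1416037_a_at ended when KO replicate 1 or 3, or WT replicate 1, 3 or 4, was left out, with adjusted p up to 0.0884.

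Cct3, the gamma subunit, fell at 2 of 7 probe sets. 1459987_s_at read 9.94, 10.01 and 9.74 in KO and 10.17, 10.26, 10.41 and 10.32 in WT lungs (1.31-fold lower, adjusted p = 0.0254). 1449645_s_at read 4.63, 4.39 and 4.31 against 4.93, 5.04, 5.12 and 5.23 (1.55-fold lower, adjusted p = 0.00898), a dim probe set below the 40th percentile of all means, 5.47. The other 5 probe sets of Cct3 differed by -0.09 to 0.03, among them the brightest, 1448178_a_at, at -0.04 (95% interval -0.22 to 0.14). The call at 1459987_s_at ended when KO replicate 1 or 3, or any of WT replicates 2 to 4, was left out (adjusted p up to 0.0698).

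None of the 7 probe sets of Cct4, the delta subunit, passed. The lowest was 1415867_at, which read 10.60, 10.80 and 10.41 in KO and 10.90, 10.87, 10.98 and 11.04 in WT lungs, without overlap (-0.34, 95% interval -0.56 to -0.13, adjusted p = 0.0530). The brightest, 1433447_x_at, differed by -0.13, and the others lay between -0.27 and 0.03.

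The name of a probe set tells how specific its probes are. The suffix _x_at marks sets with probes that match other transcripts too, and Affymetrix uses _s_at and _a_at for sets that share all their probes among several transcripts or among variants of 1 gene. Of the 7 _x_at members, all in Cct2, Cct3 and Cct4, 0 passed, with differences of -0.14 to 0.03, whereas 10 of the other 21 passed. This split was looked at after the values were seen and was not tested. How often _x_at sets passed over the whole array was not counted. The split also mixes suffix with gene, since many of the other 21 belong to genes without an _x_at set. Of all probe sets of Cct2, Cct3 and Cct4, 1 of 3, 2 of 7 and 0 of 7 passed. Across the 18 differences between the brightest probe set of a gene and each of its others, KO and WT did not overlap in 9, and 0 passed after adjustment over the 18 (lowest adjusted p = 0.0571). How often such differences separate the groups in other genes was not counted, so the 9 cannot be read as particular to chaperonins. The positions of the probes along the transcripts were not analysed here, and the part of the 3′ to 5′ difference between the groups in this pattern was not tested. Chaperonin genes also have processed copies in mammalian genomes that probes may match.

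**Figure D2:**
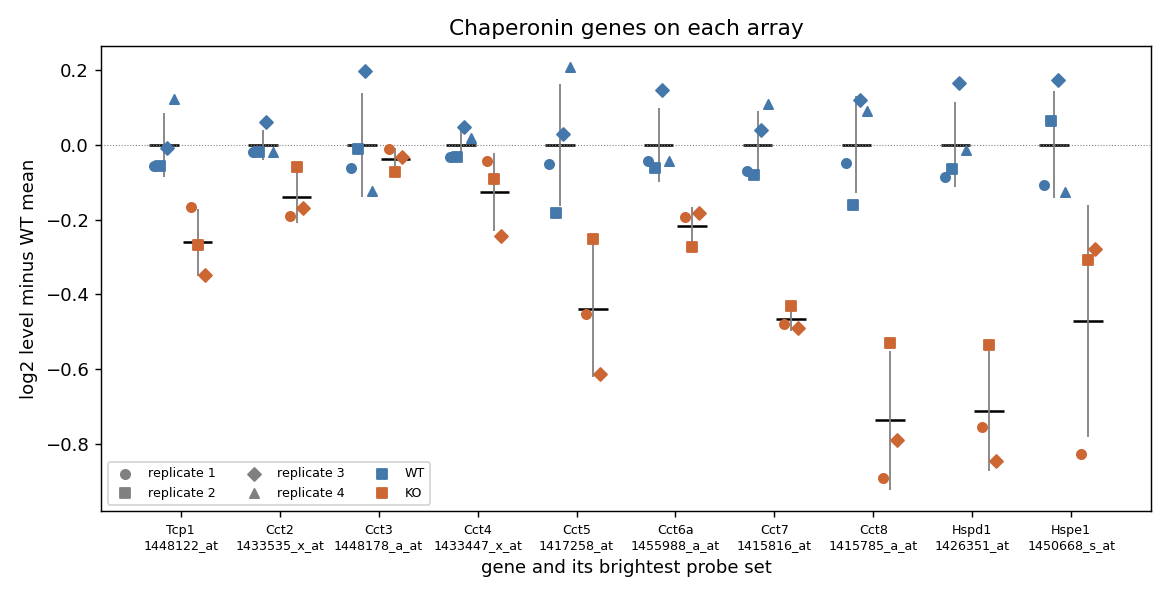
Each point is the log2 level of a gene's brightest probe set on 1 array minus the mean of the 4 WT arrays, with WT in blue and KO in orange, a shape for each replicate, and bars for the group mean and SD. The groups overlap at Cct3 and at no other gene. Of all 18193 genes at the brightest probe set, 13% had groups apart with KO lower and 12.3% with KO higher.

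In the mitochondrial pair the differences were among the largest of the 28. Hspd1, the barrel subunit, has 1 probe set, 1426351_at, which read 10.23, 10.45 and 10.14 in KO and 10.90, 10.92, 11.15 and 10.97 in WT lungs. The gap between the groups was 0.45, wider than the range within either. Hspd1 was 1.64-fold lower in KO, at 10.27 ± 0.16 (SD, n = 3) against 10.98 ± 0.11 (SD, n = 4), with an adjusted p of 0.00593.

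Hspe1, the lid, fell at 1422579_at, which read 7.35, 8.02 and 7.66 in KO and 8.39, 8.46, 8.55 and 8.34 in WT lungs (1.69-fold lower, adjusted p = 0.0158). The KO arrays were more scattered than the WT arrays, with SDs of 0.34 and 0.09, and leaving out KO replicate 3 ended the call (-0.75, adjusted p = 0.0556). At the brighter 1450668_s_at the KO arrays read 10.33, 10.85 and 10.88 and the WT arrays 11.05, 11.22, 11.33 and 11.03. KO replicate 1 stood 0.52 below the other KO arrays, the groups did not overlap, and the difference of -0.47 did not pass (95% interval -0.79 to -0.15, adjusted p = 0.0694).

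Whether lid and barrel differed from each other was asked on each array. The Hspe1 level at 1450668_s_at minus the Hspd1 level was 0.10, 0.40 and 0.74 on the KO arrays and 0.15, 0.30, 0.18 and 0.06 on the WT arrays. The groups overlapped (difference of means 0.24, exact permutation p = 0.2, adjusted p = 0.4 over both Hspe1 probe sets). With 1422579_at in its place KO minus WT was -0.05 (exact permutation p = 0.857). The test has few arrays, and it does not show that both genes changed alike.

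The order of the arrays within a group was looked at over the members only. It was not counted over all probe sets, so it cannot be read as particular to chaperonins. Over all 28 probe sets, KO replicate 3 was the lowest KO array in 14 and KO replicate 2 the highest in 15, with ties counted for each array. The 10 that fell were selected for low KO values, so only the order within the KO group is described for them. Among these, KO replicate 3 was the lowest KO array in 8 and KO replicate 1 in 2, while KO replicate 2 was the highest in 9. Averaged over these 10, KO replicates 1, 2 and 3 differed from the WT mean by -0.62, -0.46 and -0.69, and over all 28 by -0.31, -0.23 and -0.33. WT arrays were closer together, with averages over the 10 between -0.08 and 0.09 around that mean. KO replicate 2 also had the largest beta-actin 3′ minus 5′ difference, 5.39, and KO replicate 3 the largest 3′ minus middle difference, 3.34.

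Taking 1 value a gene at the brightest probe set, 4 of 10 genes fell, Cct5, Cct7, Cct8 and Hspd1, against 6.52% of 18193 genes. All 10 had a negative sign, with a median of -0.35 against 0.04 over all genes. When each gene's probe sets were averaged and the averages fitted over genes, 8 of the 10 fell. In that fit 1125 of all 18193 genes fell and 623 rose. Cct3 and Cct4 did not pass, at -0.16 (adjusted p = 0.112) and -0.14 (adjusted p = 0.0817), and Tcp1 passed at -0.26 (adjusted p = 0.0432).

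Partners of the chaperonins were counted from lists drawn up for this comparison, at the brightest probe set of each gene. Of 97 listed genes, 91 had a probe set of their own, of which 19 fell, 3 rose and 69 did not pass. Over all genes 6.52% fell and 4% rose. Cytosolic heat-shock chaperones made up 10 of those 19, and the remaining lists gave 9 of 80.

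Prefoldin, the complex that delivers unfolded actin and tubulin to TRiC, had 2 of 6 subunits lower: Pfdn1 fell 1.49-fold (adjusted p = 0.0348) and Pfdn5 1.52-fold (adjusted p = 0.0272). The other 4 were negative and did not pass, for a list median of -0.23. Pfdn5 has 5 probe sets, of which 3 read between 0.01 and 0.07 and 1415736_at read -0.71. Of 4 phosducin-like cofactors of TRiC 0 passed in limma (median -0.02). At unadjusted p under 0.05, 1 was lower and 0 higher, against 15.7% of all genes in each direction.

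Of 15 actins, actin-related proteins and tubulins, the classical substrates of TRiC, 2 fell and 13 did not pass. Tubb4b, a beta-tubulin, fell 1.59-fold (adjusted p = 0.00731), from 10.20 ± 0.07 (SD, n = 4) to 9.54 ± 0.20 (SD, n = 3), and Tubg1, the gamma-tubulin of microtubule nucleation, 1.20-fold (adjusted p = 0.0492). The 5 other probe sets of Tubb4b read -0.02 to 0.33 and none passed. The list median was -0.05.

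Among 8 other clients, Gnb2, a G protein beta subunit of the WD40 fold, fell 2.84-fold (adjusted p = 0.00992) and Gnb1, its paralog, 1.22-fold (adjusted p = 0.0337). The other Gnb1 probe sets read -0.13 and -0.05 and did not pass. Tubulin folding cofactors, which act after TRiC, had 0 of 7 lower and 1 higher: Tbcd rose 1.25-fold at 1455801_x_at (adjusted p = 0.0267), while its other probe set read -0.02. Among 5 paralogs and chaperonin-like genes, Mkks, a chaperonin-like protein of the BBSome assembly pathway, fell 1.28-fold (adjusted p = 0.0405), and by more at its other probe set, 1454014_a_at (-0.99, adjusted p = 0.00388). The testis form Cct6b, at 0.07, did not pass.

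Lists of genes around Hsp60 in the mitochondrion were counted in the same way, against 6.52% of all genes lower and 4% higher. Of 7 genes of mitochondrial Hsp70 and its partners, Dnaja3, a J-domain cochaperone, fell 1.19-fold at its brightest probe set (adjusted p = 0.0256), and its others read 0.03 and 0.23. Hspa9, the mitochondrial Hsp70 itself, differed by -0.07 and did not pass. Of 8 mitochondrial proteases 0 fell and 0 rose (limma), and at unadjusted p under 0.05 there were 4 lower and 2 higher, against 15.7% of all genes in each direction. In the import machinery 2 of 15 rose, the motor subunit Timm44 by 1.28-fold (adjusted p = 0.0121) and the channel subunit Timm17b by 1.17-fold (adjusted p = 0.0438). At unadjusted p under 0.05 (limma), 0 of the 15 were lower and 4 higher. Of the other Timm44 probe sets, 1439371_x_at also rose (0.30, adjusted p = 0.0161) and 1417670_at read -0.38 and did not pass (adjusted p = 0.0641). The other Timm17b probe set read -0.18 and did not pass.

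Of 5 transcription factors of the mitochondrial and heat-shock responses 1 fell. Atf5, a factor of the mitochondrial unfolded protein response, was 1.93-fold lower, at 7.56 ± 0.24 (SD, n = 3) against 8.51 ± 0.20 (SD, n = 4; adjusted p = 0.00785). Atf4 at 0.03, Ddit3 and Cebpb, both at -0.21, and Hsf2 at 0.02 did not pass.

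The cytosolic heat-shock chaperones were the list with the largest share of lower genes, 10 of 11 measured, and a median of -0.57. The 4 with the smallest p were Stip1, a cochaperone of Hsp70 and Hsp90 (2.84-fold), Ahsa1, an activator of the Hsp90 ATPase (1.45-fold), Hsph1, a nucleotide exchange factor of Hsp70 (2.56-fold), and Dnajb1, a J-domain protein (1.48-fold), with adjusted p from 0.00229 to 0.0144. At their other probe sets Hsph1 read -2.02 and Dnajb1 -0.57, which both passed, and Ahsa1 -0.105, which did not (adjusted p = 0.614). Many of these genes were known to be lower on these arrays when the list was drawn up, so their direction adds no independent evidence. Of the 16 partner genes named here, Tubb4b, Gnb2, Timm44, Atf5, Stip1, Ahsa1, Hsph1 and Dnajb1 passed whichever single array was left out. The calls of the other 8 were each lost without WT replicate 1 and without WT replicate 3. Without WT replicate 2 all 8 but Pfdn5 were lost, and without WT replicate 4 Pfdn5, Mkks, Tubg1, Gnb1 and Timm17b. Without KO replicate 1 Pfdn5, Mkks, Tbcd, Dnaja3 and Timm17b were lost, without KO replicate 2 Pfdn1, Mkks, Tubg1 and Tbcd, and without KO replicate 3 Pfdn1, Pfdn5, Tubg1, Gnb1, Dnaja3 and Timm17b, with adjusted p up to 0.129 over all of these.

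In the other fits the number of these partner calls that held varied widely. It was 11 to 16 of 16 under quantile normalization, median centring, loess, the level filter, brightest probe sets alone, the variance model and array weights. With the replicate block it was 8. With either beta-actin covariate 0 of the 16 passed, with the Gapdh covariate Hsph1 alone, and without WT replicates 3 and 4 none, while the signs did not change. Most calls on the whole array were lost in the same fits. Over all 45037 probe sets the covariates left 0, 1 and 13 calls, and 0 were left without WT replicates 3 and 4. Gnb2 moved from -1.50 to -0.71 with the beta-actin 3′ to 5′ covariate and to -0.55 with that of Gapdh, and Tubb4b from -0.67 to -0.32 and -0.36. With the Gapdh covariate Atf5 moved from -0.95 to -0.44 and Tbcd from 0.33 to 0.18, and with the 3′ to 5′ covariate Tubg1 moved to -0.17. With the 3′ to middle covariate Gnb1 read -0.09, Mkks -0.61, Pfdn5 -0.13, Tbcd 0.54, Timm17b 0.09, Timm44 0.21 and Tubg1 -0.06.

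**Figure D3:**
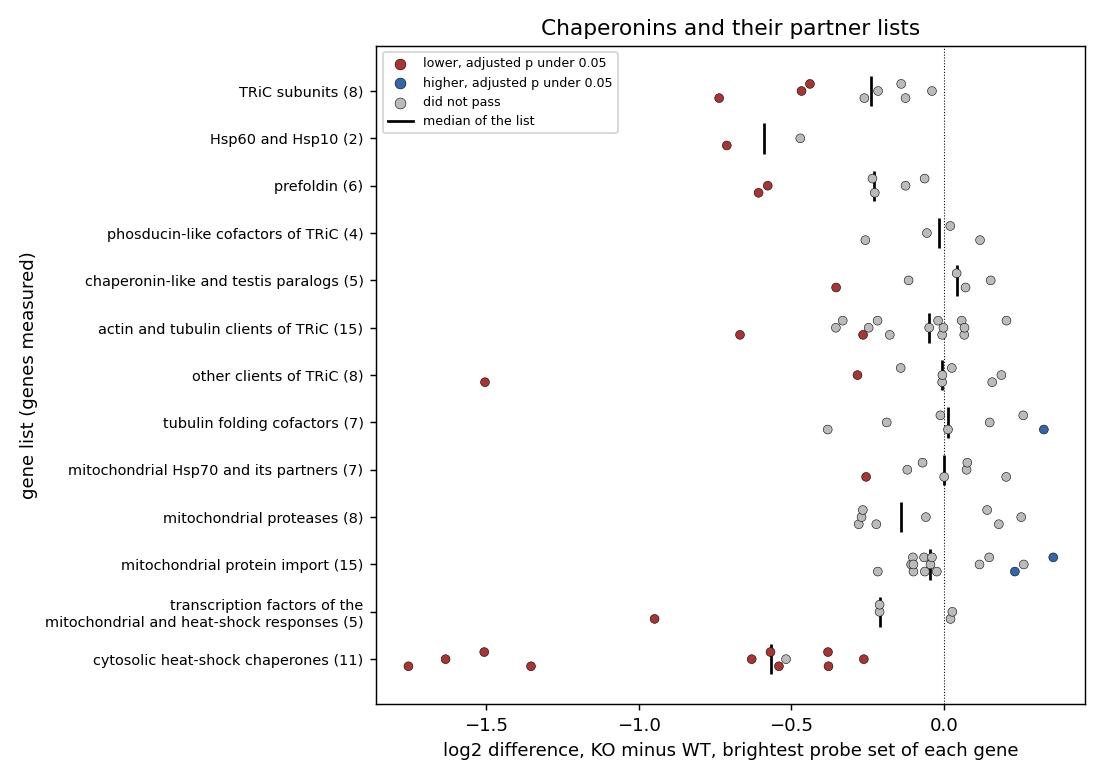
Each point is the log2 difference, KO minus WT, of 1 gene at its brightest probe set, in rows for TRiC, the mitochondrial pair and 11 partner lists, with a bar at the median of each row. Hsp60 with Hsp10 and the cytosolic heat-shock chaperones have the lowest medians, -0.59 and -0.57, and those of mitochondrial Hsp70 and of protein import lie near 0.

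The genes whose 7-array profile was closest to the mean of TRiC were Krt7, a keratin of simple epithelia, Mme, the membrane peptidase neprilysin, Ripor1, Ywhah, a 14-3-3 protein, and Rbm28, with root mean square differences of 0.029 to 0.033 on the log2 scale over 7 arrays. Closest to the mean of Hspd1 and Hspe1 were Creld2, a protein of the endoplasmic reticulum, Klf4, a zinc-finger transcription factor, Dnajb1, Cdr2 and Fxr1, at 0.053 to 0.076. The TRiC subunits themselves lay between 0.066 and 0.23 from their own mean. A mean varies less than single genes and is set by the group difference, so closeness describes these arrays only.

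Markers of lung cell types differed between the groups as well. Over all genes 6.52% fell and 4% rose, and 15.7% lay in each direction at unadjusted p under 0.05 (limma). The mean level of 8 lung epithelial markers was 10.92 to 11.19 in KO and 11.24 to 11.32 in WT lungs. Of the 8, 0 passed (limma, 2 lower and 0 higher at unadjusted p under 0.05). Of the markers listed for other cells, 3 of 8 endothelial, 4 of 6 smooth muscle and 3 of 5 mesothelial genes fell, 3 of 6 platelet genes rose, and 0 of 7 leukocyte, 0 of 5 heart and 0 of 4 thymus genes passed (limma, with 0 of these last 3 lists at unadjusted p under 0.05). The mean level of the endothelial list lay between 9.57 and 9.88 in KO and between 10.08 and 10.39 in WT lungs, that of smooth muscle between 8.97 and 9.11 against 9.33 and 9.48, and that of mesothelium between 6.45 and 7.04 against 7.10 and 7.92. The platelet list averaged 8.51 to 8.76 in KO and 7.89 to 8.32 in WT lungs. Among 6 genes of proliferating cells, in which chaperonins are abundant, Pcna fell and 5 did not pass, with list means of 7.72 to 7.99 in KO and 7.83 to 8.09 in WT lungs. The part of these cell types in the chaperonin result was not tested.

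Across the alternatives the sign of the 10 lower probe sets, which were selected for being lower, did not change, but some differences came near 0. With the beta-actin 3′ to middle covariate they lay between -0.82 and -0.05. Cct5 then read -0.05, 1416037_a_at of Cct2 -0.08, 1459987_s_at of Cct3 -0.11 and 1423517_at of Cct6a -0.13. Leaving out 1 array at a time left 5 to 10 of the 28 lower, with 5 without KO replicate 3 and 6 without WT replicate 4. Over all 45037 probe sets the lower calls also became fewer, from 2868 to between 1399 and 2682. They were 1442 without KO replicate 3 and 1399 without WT replicate 4. The probe sets 1449645_s_at of Cct3, both of Cct7, 1415785_a_at of Cct8 and 1426351_at of Hspd1 passed whichever array was left out, with adjusted p of at most 0.0338. Without WT replicates 3 and 4, the mice with the highest numbers in the titles, 0 passed (limma, 13 lower and 0 higher at unadjusted p under 0.05, against 9.99% and 7.78% of all probe sets), with a median of -0.48 over the 10.

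**Figure D4:**
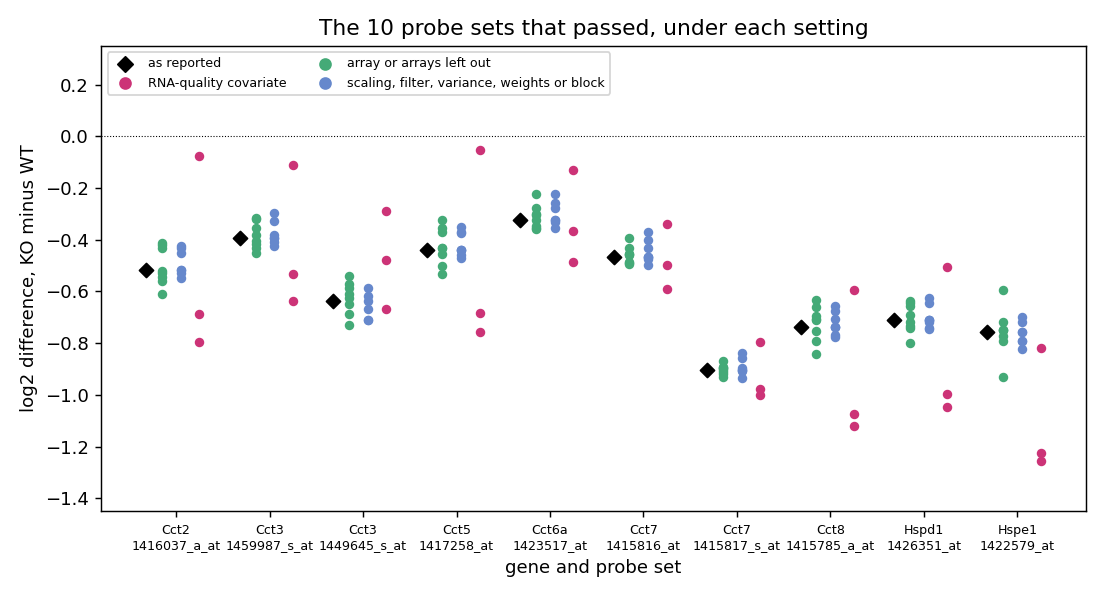
The log2 difference, KO minus WT, of the 10 probe sets that fell, as reported (black) and under each alternative: arrays left out (green), scaling, filter, variance model, weights or block (blue) and the 3 RNA-quality covariates (pink). No value crosses 0, and the pink points spread the most, from -1.26 to -0.05.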

How the data were processed

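The members and lists were chosen with earlier results of these data known. The authors deposited 1 table of log2 levels, to 2 decimals, for 45101 probe sets on 7 arrays. Per the submitters' processing notes, the tools were Affymetrix Expression Console, RMA and MAS5. Neither versions nor the tool behind the table are stated. The log base was taken from the range of the values. Columns were matched to samples by name, and groups came from the labels. Controls (64 probe sets) were left out of the tests. The platform annotation gave 1 gene for 34945 probe sets, several for 932 and none for 9160, and 34741 were updated to RefSeq symbols of GRCm38.p6 by gene identifier.

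KO was compared with WT using R 4.3.3 and limma 3.58.1 (lmFit, then eBayes) on all 45037 probe sets, with genotype as the only term, no filter on level and no change to the deposited scale. Intervals are at 95%. Each gene's brightest probe set, by mean over all 7 arrays, stands for the gene. Single values per array were compared by an exact two-sided permutation test over 35 splits. All member probe sets are given, partner genes are named where they passed, up to 4 a list by smallest p, and likeness is the root mean square difference of centred profiles. Some values of other list members, and the difference between probe sets of 1 gene, were chosen after the values were seen. On simulated arrays of 45037 probe sets the fit recovered 63 of 100 changes of 0.5 and 89 of 100 of 1, with 6 false calls. These counts describe the simulated arrays only. Whether they hold for the arrays here, whose groups also differed in a measure of RNA quality, was not tested. The number of arrays limits the precision. The labels call the samples biological replicates. Replicate numbers are shared between the groups, but same-numbered arrays did not deviate together, so they were not paired. Alternatives covered scaling, level filter, probe set choice, variance model, array weights, RNA-quality covariates, a replicate block and arrays left out. A pseudocount does not apply to log2 values. Python 3.11.15 and matplotlib 3.10.9 drew the figures.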

Additional observations from a re-analysis of the deposited data

Results flagged for a closer look

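In 3 member probe sets, 1 WT array stood apart from the other 3 by more than Dixon's 95% limit for groups of 4, a gap that chance gives in about 1 in 20 groups, and 28 were examined. WT replicate 3 was the high array in each: 11.32 for Cct2 at 1433535_x_at, 11.11 for Cct3 at 1416024_x_at and 12.09 for Cct6a at 1455988_a_at. None of the 3 passed the KO against WT test. Without that array the differences were -0.12, -0.04 and -0.17.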

How the results depend on the processing

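The alternatives were listed with earlier results known, and only the differences between probe sets of 1 gene were added after the values were seen. The count of 10 lower probe sets lay between 8 and 12 under quantile normalization, median centring, loess, the level filter, the variance model and array weights. Over all probe sets tested, these fits gave 2315 to 3500 lower calls, against 2868 as reported. The member count was 0 with either beta-actin covariate, 2 with the Gapdh covariate and 0 without WT replicates 3 and 4. With 1 array left out it was 5 to 10, and over all probe sets 1399 to 2682. The replicate block gave 5 among the members and 1043 over all probe sets. Its numbers do not pair the mice (correlations of same-numbered arrays 0.04, -0.11 and 0.05, and none closest to its own number). The count of higher member probe sets stayed at 0 throughout. At the brightest probe set the 4 lower genes became 8 with the mean of all probe sets, 0 with either beta-actin covariate, 2 with the Gapdh covariate, 0 without WT replicates 3 and 4, and 3 to 4 with 1 array left out. Over all probe sets the same covariates left 0, 1 and 13 calls, and 0 were left without WT replicates 3 and 4; fewer residual degrees of freedom are part of each of these fits, and the cause was not tested otherwise. Hspe1 minus Hspd1 turned to -0.047 with the other Hspe1 probe set and was 0.08 to 0.40 with 1 array left out. Of 183 values of the 10 that fell, 116 kept sign and call, 67 kept the sign only and 0 reversed. Of 327 values of the other 18, 11 came to pass and 43 reversed, all in probe sets with differences near 0 as reported except 1433447_x_at, and the cause was not tested. Under quantile normalization the sign turned for Cct2 1433534_a_at at 0.10, Cct3 1448178_a_at at 0.034, Cct3 1426067_x_at at -0.0092, Cct3 1439679_at at -0.050, Cct3 1451915_at at -0.046 and Cct4 1438560_x_at at 0.049. Under median centring the sign turned for Cct3 1426067_x_at at -0.021, Cct3 1439679_at at -0.026, Cct3 1451915_at at -0.00083, Cct4 1456082_x_at at -0.013 and Cct8 1436973_at at -0.0075. Under cyclic loess the sign turned for Cct2 1433534_a_at at 0.063, Cct3 1448178_a_at at 0.030, Cct3 1426067_x_at at -0.037, Cct3 1439679_at at -0.067, Cct3 1451915_at at -0.043, Cct4 1438560_x_at at 0.034, Cct4 1456572_x_at at -0.013 and Cct8 1436973_at at -0.022. With the beta-actin 3′ minus 5′ covariate the sign turned for Cct3 1439679_at at -0.0031 and Cct4 1456572_x_at at -0.00049. With the 3′ minus middle covariate the sign turned for Cct2 1433534_a_at at 0.015, Cct4 1433447_x_at at 0.066, Cct4 1456082_x_at at -0.12, Cct4 1456572_x_at at -4.5e-05 and Cct8 1436973_at at -0.022. With the Gapdh covariate the sign turned for Cct3 1426067_x_at at -0.070, Cct3 1439679_at at -0.041 and Cct3 1451915_at at -0.037. Without WT replicates 3 and 4 it turned for Cct2 1433534_a_at at 0.015 and Cct8 1436973_at at -0.033. With 1 array left out the differences spanned -0.023 to 0.027 for Cct2 1433534_a_at, -0.080 to 0.027 for Cct3 1448178_a_at, -0.023 to 0.060 for Cct3 1426067_x_at, -0.0067 to 0.018 for Cct3 1439679_at, -0.013 to 0.063 for Cct3 1451915_at, -0.055 to 0.0033 for Cct4 1438560_x_at and -0.040 to 0.085 for Cct4 1456082_x_at, so their sign was not fixed.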
